A study of Mus musculus with 30 samples.

Results

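The comparison described here is osteoclast differentiation in wild-type cultures from 6-month-old mice. It sets 3 libraries of large multinucleated cells (replicates 1, 2 and 4) against 3 libraries taken at 2 days (replicates 1, 2 and 3), that is 6 of the 30 RNA-seq libraries in the series, chosen by their labels alone. Cells of both groups came from C57BL/6J mice carrying no Terc deletion. Bone marrow-derived macrophages were grown on bone slices in α-MEM with 10% FBS, RANKL at 100 ng/ml and M-CSF at 25 ng/ml, and RNA was taken either at 2 days or once big multinucleated cells had formed. The 2-day cells had therefore already met both cytokines, and the day on which the large cells were harvested is not given in the labels. The rest of the series holds Terc-/- cultures and other ages, of which the 20-month wild-type cultures, taken at the same stages with 3 libraries each, are used below. Nothing states whether replicates were separate animals or cultures, so p-values measure the spread between these libraries, which may be technical.

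Osteoclasts are the cells that resorb bone. They form when macrophage precursors exposed to M-CSF and RANKL switch on the transcription factor NFATc1 and fuse with each other. A mature osteoclast seals itself to bone through a ring of podosomes, pumps acid through a vacuolar proton ATPase beside a chloride channel to dissolve mineral, and secretes cathepsin K and matrix metalloproteinases to digest the exposed collagen. The work is costly in energy, and mitochondria are abundant in these cells.

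Large-cell replicate 2 stood apart from the other libraries, so the counts of each gene list are given with and without it. Its log2 values correlated with those of large-cell replicates 1 and 4 at 0.889 and 0.926, against 0.975 between replicates 1 and 4 and at least 0.987 among the 2-day libraries. Transcripts annotated as ribosomal RNA took 0.933% of its TPM, against 0.0276% and 0.0255% in large-cell replicates 1 and 4 and 0.0517% to 0.0646% at 2 days. Genes for ribosomal proteins took 21.9%, against 11.4% and 13.9% in the other large-cell libraries and 11.5% to 12.01% at 2 days. Mitochondrially encoded genes took 3.30%, against 9.57% and 8.85% in the other large-cell libraries and 5.75% to 6.12% at 2 days. Short genes read high in it. With genes put in 5 equal groups by exon length, its median in the shortest group lay 0.76 above the mean of the other large-cell libraries on the log2 scale, and in the longest group 0.58 below, whereas replicate 1 lay 0.26 below replicate 4 in the shortest group and 0.21 above it in the longest. The step from 2 days to large cells ran with length as well, at 0.39 in the shortest and -0.35 in the longest group with all 6 libraries, and at 0.15 and -0.13 without replicate 2. The part of gene length in the results below was not tested. Per-library values below are TPM as deposited, and log2 changes (large cells minus 2 days, ± standard error) were taken after scaling. The scaling divided large-cell replicate 2 by 0.639, the other large-cell libraries by 1.07 and 0.938 and the 2-day libraries by 1.15 to 1.17, so a TPM value of replicate 2 counted for more after scaling than its deposited size. Since 1 TPM was added before the logarithm, these changes understate those of low genes.

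**Figure D1:**
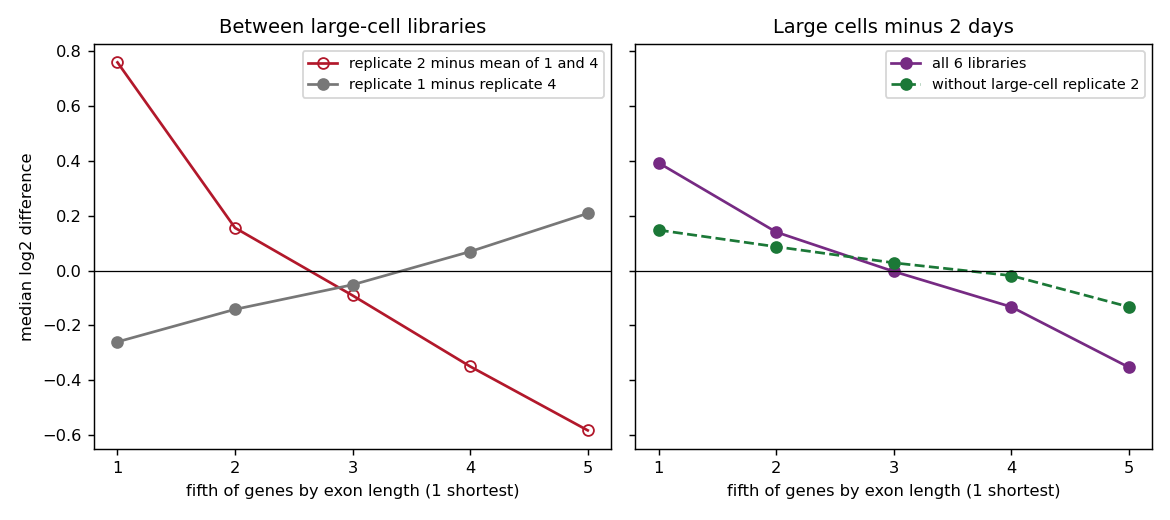
Median log2 difference (y axis) in 5 equal groups of genes numbered from short to long exon length (x axis). The lines are large-cell replicate 2 minus the other large-cell libraries, replicate 1 minus replicate 4, and large cells minus 2 days with and without replicate 2. Replicate 2 lies at 0.76 in the shortest group and at -0.58 in the longest, and the step with all 6 libraries at 0.39 and -0.35.

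Of 12785 genes tested by limma at a Benjamini-Hochberg adjusted p below 0.05, 2016 (15.8%) were called with all 6 libraries, 1065 higher (8.33%) and 951 lower (7.44%) in large cells. Without large-cell replicate 2, 4514 of 12814 (35.2%) were called, 2445 higher (19.1%) and 2069 lower (16.1%). Of the 2016 genes, 2006 were called in the same direction in both fits, and the other 10 fell under the level filter in the smaller set. The count of all calls was 2142 without large-cell replicate 1, 1322 without large-cell replicate 4, and 520, 445 and 606 without 2-day replicates 1, 2 and 3. With TPM as deposited, which shifts the median of all genes by -0.38, 474 genes were higher and 1248 lower, and 1501 and 3474 without replicate 2. Directions below are relative to the bulk of genes. Every list count below is to be read beside the shares of all genes called in the same fit. The members described next came from 35 gene lists, of which 542 distinct genes were tested. Of these, 204 were called with all libraries (155 higher and 49 lower, or 90 and 69 with TPM as deposited), 352 without large-cell replicate 2, 206 without large-cell replicate 1, 141 without large-cell replicate 4, and 71, 66 and 81 without 2-day replicates 1, 2 and 3.

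The labels were checked against markers of osteoclasts. Of 10 such markers, 9 could be tested with all 6 libraries and 9 rose in large cells. The tenth, the calcitonin receptor gene Calcr, read 3.58, 0.892 and 1.45 TPM in large-cell replicates 1, 2 and 4 and was listed at 0 in the 2-day libraries. The groups did not overlap in 9 of the 10, the exception being Nfatc1, against 11.4% of all tested genes that lay higher in large cells without overlap. In bulk libraries, a larger share of osteoclasts and more RNA of a gene per osteoclast cannot be told apart. Some of these genes were already detectable at 2 days, with Ctsk at 36.8, 34.6 and 45.1 TPM and Mmp9 at 441, 412 and 210.3 TPM.

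Enzymes of bone resorption, fusion proteins and MHC class II molecules led the rises. Acp5 (ENSMUSG00000001348), the tartrate-resistant acid phosphatase that marks osteoclasts, read 5679.9, 4668 and 4553 TPM in large cells, against 23.5, 16.9 and 23.1 TPM at 2 days. The rise was 8.23 ± 0.24 on the log2 scale (adjusted p = 6.48e-05), and 8.07 without replicate 2. Ctsk, the cathepsin that cleaves bone collagen, read 6064, 2469 and 3822 TPM in large cells, against 36.8, 34.6 and 45.1 TPM at 2 days, a rise of 7.03 ± 0.23 (7.15 without replicate 2). The groups lay far apart for both genes, and replicate 2 was the lowest of the large-cell libraries for Ctsk but not for Acp5. Cd74, the invariant chain of MHC class II, read 357, 523 and 325 TPM, against 2.19, 2.34 and 2.43 TPM, and rose by 7.25 ± 0.36 (adjusted p = 0.000302). Mt3, a metallothionein, read 104, 175 and 67.8 TPM, against 0, 0 and 0.366 TPM, and rose by 6.84 ± 0.48. Slc9b2, a sodium/proton exchanger of osteoclasts, read 200.1, 132 and 152 TPM, against 1.63, 0.431 and 1.97 TPM. Cyp2s1, a cytochrome P450 gene, rose by 5.43 ± 0.30, and Rufy4, a gene linked to autophagy and lysosome positioning, by 5.09 ± 0.20. In none of the 12 leading rises did the groups overlap, which the rule for naming them required.

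Among the 12 largest falls were secreted factors, a cyclooxygenase and adhesion genes. Il11, a cytokine of the IL-6 family, read 2.59, 0.609 and 2.18 TPM in large cells, against 38.5, 49.9 and 54.1 TPM at 2 days, and fell by 3.89 ± 0.27 (adjusted p = 0.00112). Inhba, the activin A subunit gene, read 308, 17.1 and 140.3 TPM, against 1388, 1548 and 1339.7 TPM. It changed by -3.53 ± 0.80 with all libraries (adjusted p = 0.0322) and by -2.55 ± 0.26 without replicate 2, which held by far the lowest value. Ptgs2, the inducible cyclooxygenase that makes prostaglandins, read 129, 61.972 and 189 TPM, against 1046, 1213 and 1080.3 TPM, and fell (-2.84 ± 0.29). Serpinb2, a plasminogen activator inhibitor, read 194, 57.4 and 186 TPM, against 1422, 1987 and 1689 TPM. Il1rl1, the receptor for IL-33, changed by -3.23 ± 0.29, Npnt, a matrix protein gene named nephronectin, by -2.96 ± 0.24, and Pkp1, a desmosome plaque gene, by -2.96 ± 0.32. Aldh1a3, which makes retinoic acid, changed by -2.80 ± 0.33. Ism1, Odaph and Pakap stood at -3.28, -3.27 and -2.83. Replicate 2 read lowest of the large-cell libraries, as deposited, for each of the falls named here. Of the 24 leading rises and falls, 22 were still called with any 1 of the 2-day libraries or large-cell replicate 4 left out.

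**Figure D2:**
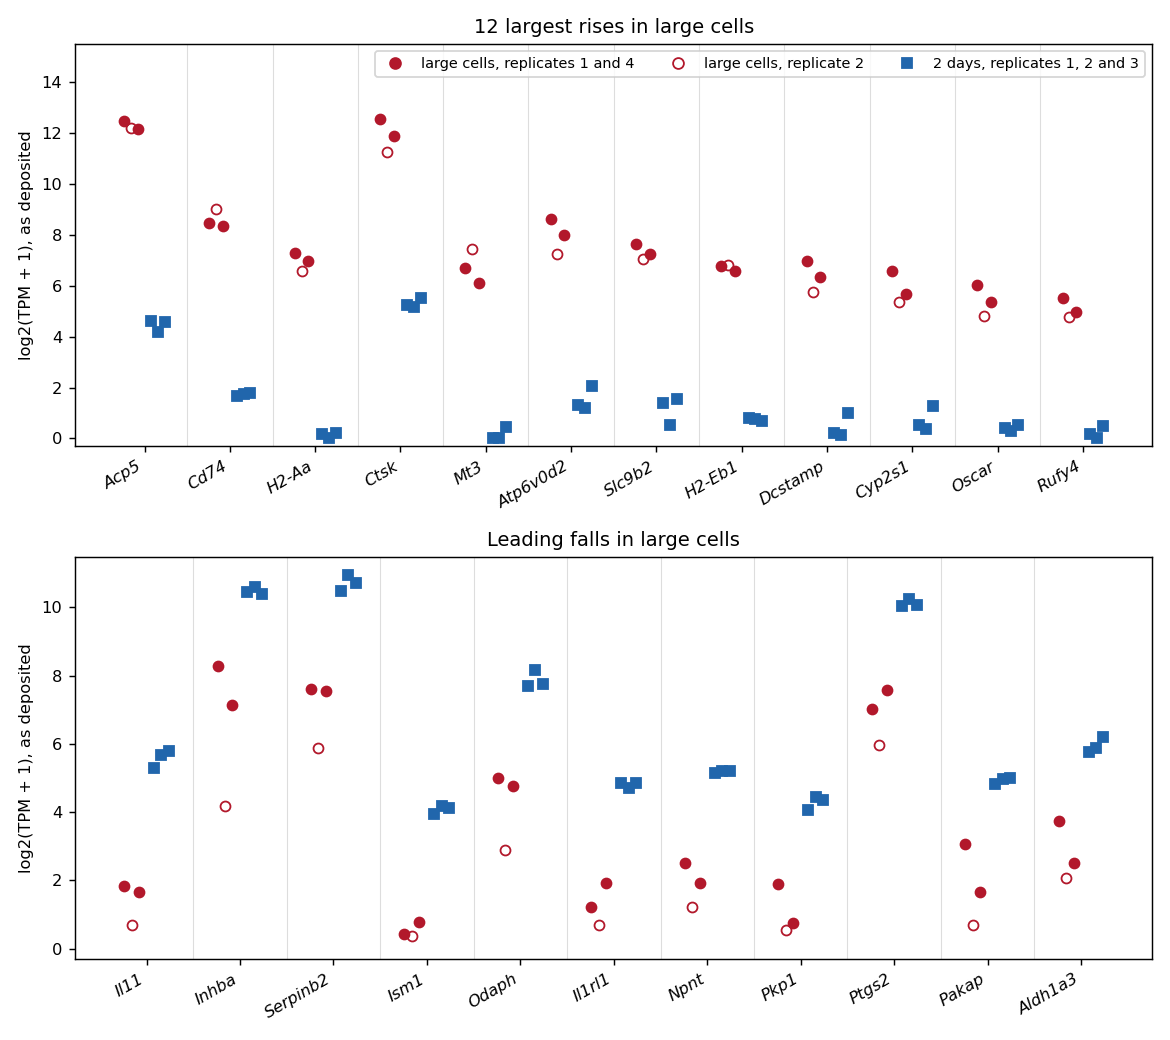
Level in each library as log2(TPM + 1), TPM as deposited (y axis), for the 12 largest rises (top) and leading falls (bottom), with large cells as circles (replicate 2 open) left of 2 days as squares. The circles lie above the squares for each rise, for Acp5 at 4553 TPM or more, and below them for each fall.

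The machinery of acid secretion rose together. Of 25 genes tested, 20 were higher and none lower in large cells, against 8.33% of all genes called higher, with a median of 1.47 (all genes, -0.004). Without replicate 2, 23 were higher and 1 lower, with a median of 1.40, and 9 were higher and none lower with any 1 of the 2-day libraries left out. With TPM as deposited 12 were higher, and 23 without replicate 2. Of 16 subunit genes of the proton pump, 12 rose with all libraries, and 14 rose and 1 fell without replicate 2. Atp6v0d2, on chromosome 4, 19876841 to 19922605, encodes the form of the d subunit that osteoclasts use, and also takes part in cell fusion. It read 388, 152 and 253 TPM in large cells, against 1.48, 1.28 and 3.13 TPM at 2 days, a rise of 6.78 ± 0.28. Its widely expressed paralogue Atp6v0d1 read 178, 181 and 155 TPM, against 123, 116 and 123 TPM, which just missed the threshold (0.92 ± 0.25, adjusted p = 0.0501) and passed without replicate 2 (0.68 ± 0.09). TPM is per length, so the paralogues were set side by side, although the gene lengths used are not stated. Atp6v0d1, with 1793 exon bases, is in the shortest length group and Atp6v0d2, with 2716, in the next. Replicate 2 read 0.76 and 0.16 above the other large-cell libraries in these groups, and the part of length in its order was not tested. Atp6v0d2 lay far under Atp6v0d1 at 2 days, above it in large-cell replicates 1 and 4 and below it in replicate 2. The a subunits differed among themselves as well. Tcirg1, the a3 subunit sent to the ruffled border, read 703, 960.0 and 500.2 TPM, against 170.1, 162 and 173 TPM, and rose (2.47 ± 0.39). Atp6v0a1 changed by -0.18 ± 0.20 (adjusted p = 0.544), and Atp6v0a2 by -0.77 ± 0.23 (adjusted p = 0.0668). Atp6v0a2 passed as a fall without replicate 2 (-0.55 ± 0.12).

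Partners of the pump rose too. Clcn7, the chloride/proton antiporter that balances the pump's charge, read 185, 65.3 and 85.1 TPM in large cells, against 45.3, 44.028 and 34.7 TPM at 2 days, and rose (1.70 ± 0.27). Its β subunit gene Ostm1 read 66.3, 31.7 and 52.1 TPM, against 39.4, 43.988 and 41.6 TPM. It was called at 0.61 ± 0.15 (adjusted p = 0.0417), although replicate 2 as deposited lay under the 2-day libraries. Car2, the carbonic anhydrase that supplies protons, read 24.4, 7.75 and 16.2 TPM, against 3.79, 3.37 and 4.71 TPM, and rose (2.03 ± 0.26). Slc4a2, the exchanger that removes bicarbonate, rose (1.60 ± 0.20), as did Snx10 (1.61 ± 0.26) and Plekhm1 (1.58 ± 0.21), which serve vesicle traffic to the ruffled border. Atp6v1a, a catalytic pump subunit, was not called with all libraries. It read 556, 65.4 and 267 TPM, against 157, 167 and 149 TPM, so the groups overlapped, with replicate 2 alone below the 2-day libraries, and the change was 0.86 ± 0.55 (adjusted p = 0.306) with all libraries and 1.51 ± 0.24 (adjusted p = 0.00387) without it.

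The promoters of these genes are shown because the microphthalmia factor MITF and its relatives TFE3 and TFEB, which read the M-box, are known regulators of Acp5 and of lysosomal and proton pump genes. The M-box was searched as TCATGTG or TCACGTG on both strands in the 250 bases before the start of each gene (RefSeq, GRCm38.p6), and capitals mark the matches, which on the minus strand read CACATGA or CACGTGA. It was found in 6.28% of 32851 promoters. Of the 25 acid secretion genes 18 had a promoter in the table, 26 promoters in all, and 5 of these (19.2%) held it, in Atp6v0b, Atp6v0c, Atp6v1a and Clcn7. Of the lysosomal list 8 of 24 promoters (33.3%) held it, of the list of negative regulators 4 of 16 (25.0%), and of the transcription factors, fusion and podosome lists none did. The match describes the sequence and says nothing of what binds there. The promoters shown, one that holds a match for each gene, are of Acp5 at chr9:22130599-22130848 on the minus strand, Atp6v0b at chr4:117887330-117887579 on the minus strand, Atp6v0c at chr17:24169451-24169700 on the minus strand and Clcn7 at chr17:25133141-25133390 on the plus strand, each read 5′ to 3′ towards the start of the gene.
Acp5: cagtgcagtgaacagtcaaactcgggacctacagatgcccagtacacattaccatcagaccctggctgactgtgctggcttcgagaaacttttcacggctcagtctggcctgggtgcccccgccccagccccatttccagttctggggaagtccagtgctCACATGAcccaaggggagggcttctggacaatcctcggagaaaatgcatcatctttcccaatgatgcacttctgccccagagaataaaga
Atp6v0b: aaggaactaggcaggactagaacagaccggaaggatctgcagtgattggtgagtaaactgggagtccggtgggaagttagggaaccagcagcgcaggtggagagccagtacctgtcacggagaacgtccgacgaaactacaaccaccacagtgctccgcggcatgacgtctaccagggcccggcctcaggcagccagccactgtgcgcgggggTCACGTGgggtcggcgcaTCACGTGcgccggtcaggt
Atp6v0c: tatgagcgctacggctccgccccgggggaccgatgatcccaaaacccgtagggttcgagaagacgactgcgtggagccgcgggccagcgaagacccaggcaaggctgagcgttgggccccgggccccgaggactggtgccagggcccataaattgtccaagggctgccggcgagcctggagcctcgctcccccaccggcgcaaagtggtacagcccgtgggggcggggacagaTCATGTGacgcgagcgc
Clcn7: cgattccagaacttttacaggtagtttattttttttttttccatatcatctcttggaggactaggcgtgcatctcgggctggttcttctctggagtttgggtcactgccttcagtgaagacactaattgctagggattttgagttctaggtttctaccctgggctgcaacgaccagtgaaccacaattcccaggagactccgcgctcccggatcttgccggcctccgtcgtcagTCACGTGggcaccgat

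Atp6v0b, whose promoter holds a pair of M-boxes near its start, read 650.0, 884 and 625 TPM in large cells, against 253, 239.6 and 258 TPM at 2 days, and rose (1.93 ± 0.34). Atp6v0c, the proteolipid of the pump, read 1598, 1361 and 1456 TPM, against 566, 553 and 609 TPM, and rose (1.78 ± 0.23). Pump genes whose promoters in the table held no M-box rose too, for example Tcirg1 above and Atp6v1e1, a subunit of the peripheral stalk, at 484, 372 and 435 TPM, against 297, 308 and 296 TPM (0.94 ± 0.19).

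Of 7 genes for bone-resorbing enzymes and matrix proteases, 3 rose in both fits and with any 1 library left out, and none fell. Beside Acp5 and Ctsk the riser was Mmp9, the gelatinase B of osteoclasts, at 2058, 1940.3 and 1714 TPM in large cells, against 441, 412 and 210.3 TPM at 2 days (2.92 ± 0.37, adjusted p = 0.00513). The groups did not overlap, and 2-day replicate 3 read lower than its partners. The other members were not called in either fit. Mmp14, a membrane-bound metalloproteinase, changed by -0.19 ± 0.22 and Mmp13, a collagenase, by -0.50 ± 0.26. Mmp12, the macrophage elastase, changed by -0.24 ± 0.33 and Adam8 by -0.29 ± 0.19. The list as a whole had a median of -0.19, and 0.03 without replicate 2.

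Of 15 receptor and adaptor genes 8 were higher and none lower, and 13 of 16 were higher without replicate 2, with medians of 0.90 and 1.10. The count was 4 without large-cell replicate 4 or with TPM as deposited, and 2 without any 1 of the 2-day libraries. Tnfrsf11a, the RANK receptor itself, read 48.6, 16.7 and 30.8 TPM in large cells, against 5.49, 5.14 and 7.56 TPM at 2 days, and rose (2.50 ± 0.25). Oscar, a costimulatory receptor for collagen, on chromosome 7, 3609813 to 3616157, read 64.5, 26.9 and 40.5 TPM, against 0.325, 0.240 and 0.436 TPM, and rose by 5.25 ± 0.20. The adaptor Tyrobp, known as DAP12, read 1194, 1712 and 1210.2 TPM, against 617, 567 and 736 TPM (1.51 ± 0.37), and its partner receptor Trem2 rose as well (1.36 ± 0.26). Fcer1g, the other adaptor of this pathway, changed by 1.00 ± 0.30 (adjusted p = 0.0705) and passed without replicate 2 (0.72 ± 0.15). The signal moves on through kinases and a phospholipase, of which Btk (0.99 ± 0.24), Tec (0.70 ± 0.16) and Plcg2 (0.89 ± 0.17) rose, while Syk passed only without replicate 2 (1.06 ± 0.15). Csf1r, the M-CSF receptor, read 591, 183 and 445 TPM, against 254, 240.2 and 293 TPM. Replicate 2 alone fell under the 2-day libraries as deposited, but not after the scaling used for the test. The change of 0.90 ± 0.28 (adjusted p = 0.0763) became 1.19 ± 0.13 (adjusted p = 0.00105) without replicate 2.

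Among transcription factors 9 of 21 rose and none fell, and 11 of 22 rose and 1 fell without replicate 2. With large-cell replicate 4 left out 6 rose, and with any 1 of the 2-day libraries left out 4 did. The list had 3 higher and 1 lower with TPM as deposited, where its median of 0.64 became 0.22, and 8 and 2 without replicate 2. Nfatc1, the master regulator of the lineage, read 69.5, 21.7 and 54.5 TPM in large cells, against 18.8, 21.6 and 23.9 TPM at 2 days, and rose (1.41 ± 0.27, adjusted p = 0.0181). Its change was smaller than those of its known targets Acp5, Ctsk and Dcstamp, and replicate 2 lay within the 2-day range as deposited. Fos, which acts upstream of Nfatc1, read 301, 46.7 and 195 TPM, against 29.8, 23.3 and 31.7 TPM (2.70 ± 0.49). Jdp2, an AP-1 family partner needed for osteoclast formation, read 306, 142 and 256 TPM, against 33.2, 32.7 and 35.6 TPM, and rose (3.11 ± 0.16). Spi1, which encodes PU.1, rose (1.80 ± 0.20), as did Mitf (1.86 ± 0.24), Prdm1 (1.78 ± 0.43), which represses inhibitors of the lineage, and Ppargc1b (1.84 ± 0.25), a coactivator of mitochondrial biogenesis. Of the MITF relatives, Tfeb changed by 1.40 ± 0.47 (adjusted p = 0.0951), with replicate 2 the highest library, and passed without it (0.88 ± 0.22, adjusted p = 0.0225). Tfe3 changed by -0.02 ± 0.20. In the NF-κB family the non-canonical members Nfkb2 (0.64 ± 0.15) and Relb (1.13 ± 0.23) rose, and Nfkb1 (-0.17 ± 0.30) and Rela (0.02 ± 0.15) were not called in either fit. Fosl1 was called lower without replicate 2 (-1.35 ± 0.27).

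Of 18 genes tied to cell fusion, 8 rose and 1 fell, and 10 rose and 3 fell without replicate 2. Without any 1 of the 2-day libraries 6 rose and none fell. Dcstamp, the membrane protein without which precursors do not fuse, on chromosome 15, 39745930 to 39760938, read 126, 52.7 and 79.7 TPM in large cells, against 0.172, 0.106 and 0.992 TPM at 2 days, and rose by 6.16 ± 0.27 (adjusted p = 0.000209). Its relative Ocstamp read 26.6, 18.1 and 19.7 TPM, against 0, 0.0803 and 0.112 TPM (4.60 ± 0.18). Both were near 0 at 2 days, and in both replicate 2 was the lowest large-cell library as deposited. Tspan7, a tetraspanin that organises the cytoskeleton of osteoclasts, rose (2.97 ± 0.18), while the tetraspanin genes Cd9 and Cd81, which take part in fusion, were called in opposite directions without replicate 2, at 0.89 ± 0.13 and -0.39 ± 0.12. S100a4, a calcium-binding protein, read 2739, 4099 and 3133 TPM, against 502, 294 and 713 TPM, and rose (3.22 ± 0.46). Adam12, a metalloproteinase of myoblast and osteoclast fusion, was the member that fell with all libraries, at 24.9, 5.76 and 20.5 TPM, against 68.9, 69.5 and 59.2 TPM (-1.70 ± 0.35). Sirpa (1.27 ± 0.25) rose, and its ligand Cd47 passed only without replicate 2 (0.38 ± 0.10).

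Podosome and cytoskeleton genes did not move one way. Of 27, 4 were higher and 3 lower (median -0.09), against 8.33% and 7.44% of all genes. Without replicate 2, 8 were higher and 4 lower (median 0.07), against 19.1% and 16.1% of all genes. Without any 1 of the 2-day libraries 2 were higher and none or 1 lower, and with TPM as deposited 2 were higher and 3 lower, or 6 and 8 without replicate 2. Itgb3, the β3 chain of the vitronectin receptor on osteoclasts, read 210.2, 100.1 and 114 TPM in large cells, against 46.6, 53.8 and 43.038 TPM at 2 days, and rose (1.90 ± 0.21). Itgb1, the β1 chain, read 699, 271 and 668 TPM, against 1462, 1549.8 and 1451 TPM, and fell (-1.14 ± 0.26). Its call was lost without large-cell replicate 4 or any 1 of the 2-day libraries, whereas that of Itgb3 held. The haematopoietic members Rac2 (1.85 ± 0.15) and Fermt3 (1.13 ± 0.17), which encodes kindlin-3, rose, and Rac1 (-0.16 ± 0.20) was not called in either fit. Vcl, the vinculin gene, read 92.8, 19.5 and 70.1 TPM, against 265, 276 and 256 TPM, and fell (-1.95 ± 0.39), as did Fscn1 (-1.46 ± 0.21), which bundles actin. The call of Vcl was lost with any 1 of the 2-day libraries left out, and that of Fscn1 without 2-day replicate 1 or 2. Src, the kinase needed for the ruffled border, changed by 0.42 ± 0.16 (adjusted p = 0.117) and passed without replicate 2 (0.49 ± 0.11). Pstpip2, an actin-binding adaptor, read 20.2, 1.34 and 11.9 TPM, against 10.5, 9.80 and 9.84 TPM, and its value turned over from -0.03 with all libraries to 0.79 without replicate 2.

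Genes that hold osteoclasts back were mixed, with 2 higher and 2 lower of 14, against 8.33% and 7.44% of all genes. Without replicate 2, 2 were higher and 5 lower, against 19.1% and 16.1% of all genes. With any 1 of the 2-day libraries left out, Rcan1 alone was called. Tnfrsf11b, which encodes the RANKL decoy osteoprotegerin, read 17.001, 3.41 and 17.3 TPM in large cells, against 75.5, 84.2 and 73.4 TPM at 2 days, and fell (-2.41 ± 0.42). Tnfaip3, the NF-κB inhibitor A20, fell (-1.61 ± 0.29). Rcan1, an inhibitor of calcineurin that is itself a target of NFAT, read 94.7, 51.6 and 74.7 TPM, against 25.1, 25.8 and 28.011 TPM, and rose (1.83 ± 0.14). Id2 rose slightly (0.72 ± 0.18), and its relatives Id1 (-1.22 ± 0.32) and Id3 (-0.85 ± 0.15) passed as lower without replicate 2. Irf8 and Bcl6, repressors of Nfatc1, were not called in either fit, with Irf8 at 52.3, 33.5 and 49.6 TPM, against 56.2, 57.4 and 62.985 TPM.

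Of 13 genes for factors through which osteoclasts signal to bone-forming cells, 4 rose and 4 fell, 3 rose and 1 or 2 fell with any 1 of the 2-day libraries left out, and 4 rose and 6 fell without large-cell replicate 2. Spns2, the exporter of sphingosine-1-phosphate, read 17.5, 8.42 and 12.2 TPM in large cells, against 0.895, 1.71 and 1.85 TPM at 2 days (2.75 ± 0.22). Sema4d, a semaphorin that restrains osteoblasts, read 185, 57.8 and 95.6 TPM, against 20.1, 19.5 and 26.8 TPM (2.57 ± 0.28). Pdgfb, a growth factor that draws vessels, read 105.0, 57.9 and 70.035 TPM, against 18.6, 20.5 and 17.958 TPM (2.35 ± 0.17). These were raised in each large-cell library, and Efna2 rose from a low level (1.03 ± 0.23). Slit3 read 0.517, 0.404 and 0.466 TPM, against 7.33, 7.24 and 6.18 TPM, and fell (-2.18 ± 0.17). Lif (-1.22 ± 0.17), Vegfa (-1.13 ± 0.26) and Efnb2 (-1.16 ± 0.27) fell too, and Cthrc1 (-0.85 ± 0.21) and Sphk1 (-0.67 ± 0.17) passed as lower without replicate 2.

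**Figure D3:**
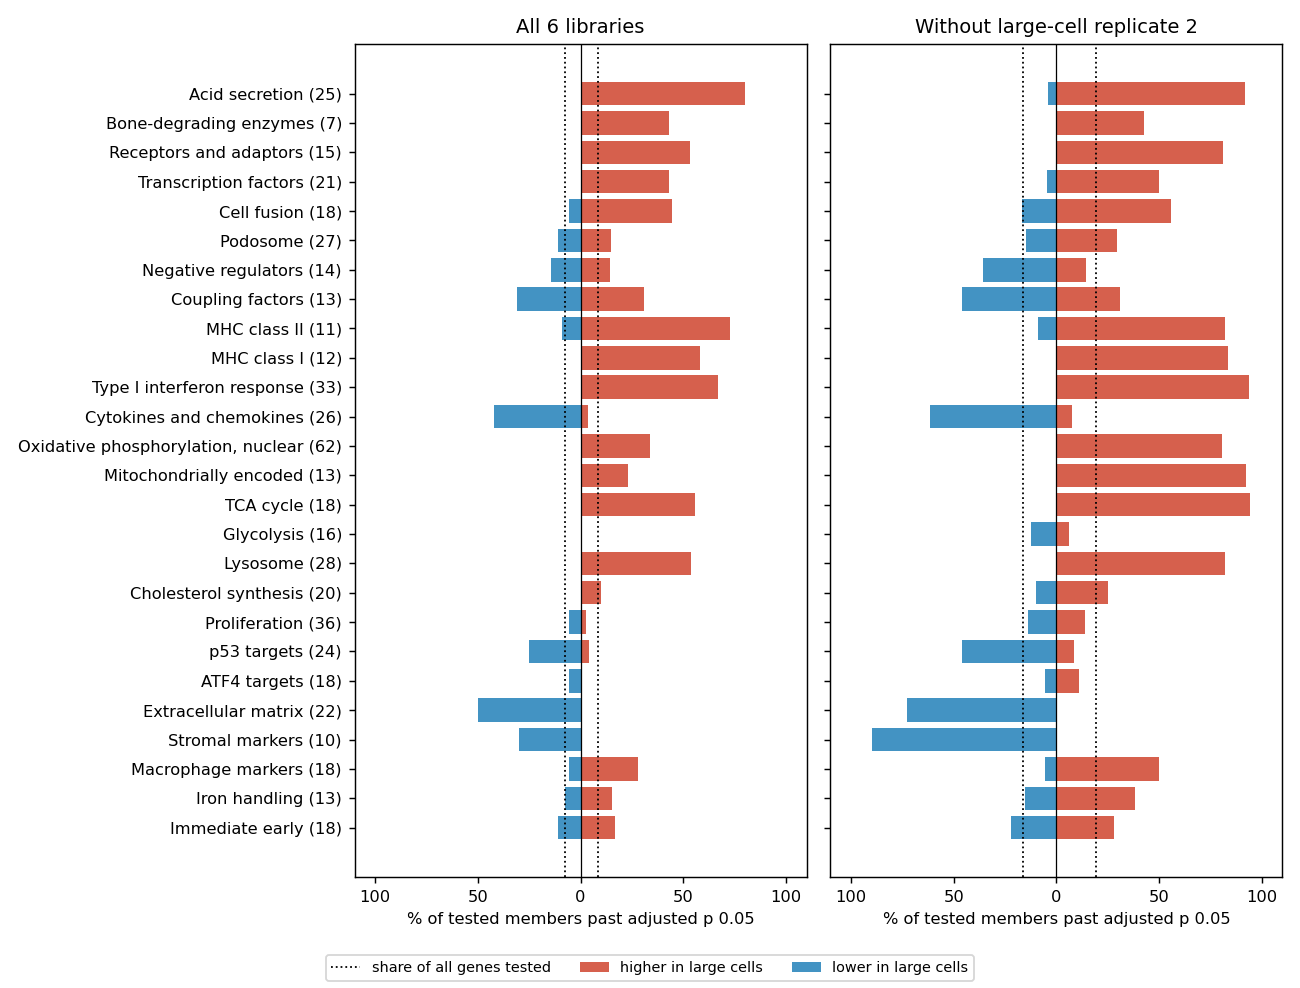
Share of the tested members of each gene list (rows, number tested with all 6 libraries in brackets) called higher (right of 0) or lower (left) in large cells than at 2 days, in percent, with all 6 libraries and without large-cell replicate 2. Dotted lines mark the shares over all genes tested, 8.33% and 7.44% with all libraries. Acid secretion (20 higher, none lower), interferon (22 and none) and oxidative phosphorylation (21 and none) extend to the right, while matrix (none and 11) and cytokine genes (1 and 11) extend to the left.

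Antigen presentation genes rose. Of 11 class II pathway genes 8 were higher and 1 lower, and 9 and 1 without replicate 2. At least 6 were higher without any 1 of the 2-day libraries. H2-Aa, the class II α chain, read 156, 94.9 and 124 TPM in large cells, against 0.116, 0 and 0.174 TPM at 2 days (7.05 ± 0.16, adjusted p = 1.89e-05). H2-Eb1 read 110.2, 112 and 95.4 TPM, against 0.766, 0.707 and 0.628 TPM, and H2-Ab1 read 92.7, 104.8 and 99.9 TPM, against 7.24, 5.59 and 4.15 TPM. As deposited, the large-cell libraries were close to each other for these β chains, replicate 2 among them. After scaling, replicate 2 stood highest for both. Ciita, the coactivator that switches class II genes on, read 1.67, 0.289 and 1.03 TPM, against 0, 0 and 0.0379 TPM, under the level needed for a test. The member that fell was Cd80 (-1.16 ± 0.20), a costimulatory ligand, while its relative Cd86 rose (1.08 ± 0.22). Of 12 class I pathway genes 7 were higher, and 10 without replicate 2, with none lower, but 3 with TPM as deposited and 0 to 2 with any 1 of the 2-day libraries left out. Psmb9, an immunoproteasome subunit, read 18.2, 18.7 and 12.5 TPM, against 4.07, 4.99 and 6.26 TPM (1.89 ± 0.31), and the peptide transporter gene Tap1 rose (1.38 ± 0.25).

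Markers of other antigen-presenting cells were read beside these genes. The summed TPM of 10 dendritic cell markers was 25.0, 12.6 and 16.8 in large cells, against 5.21, 6.56 and 5.02 at 2 days. In large cells most of it was Itgax (14.982, 5.75 and 11.4 TPM, against 2.34, 3.12 and 2.48 TPM) and Ccr7 (6.25, 4.32 and 2.13 TPM, against 0.0579, 0.0534 and 0.278 TPM), which passed as higher. Flt3, Clec9a and Siglech stood at or under 0.21 TPM and Cd209a at 0 in the 6 libraries. As deposited, 6 of the 10 markers read higher in each large-cell library than in each 2-day library, and 1 read lower. The shares over all genes tested were 11.4% and 39.7%. Of 8 B cell markers 2 were tested, and they went opposite ways. Ighm rose (9.56, 5.87 and 10.5 TPM, against 0, 0.0750 and 0.0779 TPM), and Igkc, an immunoglobulin light chain gene, read 0, 0.703 and 0 TPM, against 1.59, 5.86 and 1.4983 TPM, and passed as lower without replicate 2 (-1.76 ± 0.45). Cd79a and Ms4a1 stood at or under 0.11 TPM. The part of such cells in the class II result was not tested.

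Interferon-stimulated genes rose in large cells. Of 33 genes 22 were higher and none lower, and 31 without replicate 2, with medians of 1.75 and 1.85. With any 1 of the 2-day libraries left out 9 or 10 were higher, 18 without large-cell replicate 1 and 19 without large-cell replicate 4. The log2 change was above 0 for each of the 33 with all libraries. Ifit3, an antiviral tetratricopeptide protein, read 23.2, 12.005 and 13.2 TPM in large cells, against 1.14, 0.679 and 1.65 TPM at 2 days (3.26 ± 0.25, adjusted p = 0.00127). Rtp4, a chaperone that responds to interferon, read 32.2, 12.3 and 18.4 TPM, against 1.83, 0.985 and 1.68 TPM (3.37 ± 0.25). Cxcl10, a chemokine for T cells, read 18.962, 7.22 and 12.6 TPM, against 0.767, 1.28 and 2.44 TPM (2.75 ± 0.29). The levels were low, since 30 of the 33 stayed under 50 TPM in each large-cell library, and large-cell replicate 1 read highest for these 3 genes. Irf7, the amplifier of the response, rose (2.42 ± 0.28), as did Stat2 (1.04 ± 0.20), which carries the signal, and Usp18 (2.44 ± 0.27), which dampens it. Ifit3 and Ifit3b, like H2-K1 and H2-D1, share long near-identical stretches, and the rule by which reads were split between such copies is not stated, so their values are uncertain.

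The promoters of Ifit3 and Isg15 are printed to show the element that interferon-activated factors read, searched as GAAA, any pair of bases, GAAA on both strands. It was present in 2.98% of all 32851 promoters and in 11 of the 27 promoters (40.7%) of the 24 interferon genes found in the table. Its letters can overlap the NFAT core GGAAA, which was found in 55.6% of all promoters and in 85.2% of these. Ifit3 lies at chr19:34583279-34583528 on the plus strand and holds a pair of elements, and Isg15 lies at chr4:156200819-156201068 on the minus strand and holds 3 that overlap. Capitals mark the elements.
Ifit3: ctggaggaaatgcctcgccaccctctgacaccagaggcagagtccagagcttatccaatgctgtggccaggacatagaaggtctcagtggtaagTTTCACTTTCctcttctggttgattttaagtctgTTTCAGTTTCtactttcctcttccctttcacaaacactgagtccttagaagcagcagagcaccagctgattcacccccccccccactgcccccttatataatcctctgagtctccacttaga
Isg15: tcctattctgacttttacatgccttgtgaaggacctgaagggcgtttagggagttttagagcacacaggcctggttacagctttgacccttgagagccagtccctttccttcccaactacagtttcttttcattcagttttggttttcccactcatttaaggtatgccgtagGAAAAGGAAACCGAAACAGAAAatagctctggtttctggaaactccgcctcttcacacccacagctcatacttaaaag

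Isg15, a ubiquitin-like modifier, read 24.8, 29.4 and 14.1 TPM in large cells, against 4.61, 2.72 and 4.59 TPM at 2 days, and rose (2.59 ± 0.41). The element was also found before Ifit1 (2.11 ± 0.21), Oas3 (2.08 ± 0.36), Rsad2 (1.95 ± 0.33) and Cxcl10, which rose, and before Bst2 (1.31 ± 0.41, adjusted p = 0.078) and Trim30a (0.77 ± 0.47, adjusted p = 0.284), which passed only without replicate 2. Interferon genes whose promoter in the table held no element rose too, for example Irf7 above. The match describes the sequence only, and its part in the rise was not tested.

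Among inflammatory cytokines and chemokines most of the calls were falls. Of 26 genes 11 fell and 1 rose, and 16 fell and 2 rose without replicate 2, with medians of -1.04 and -1.21. Il1a, an alarmin, read 10.3, 8.41 and 10.2 TPM in large cells, against 88.6, 126 and 55.6 TPM at 2 days (-2.62 ± 0.31). The neutrophil chemokine genes Cxcl1 (-2.19 ± 0.25), Cxcl2 (-1.06 ± 0.26) and Cxcl3 (-2.23 ± 0.38) fell together, and 2-day replicate 3 was the lowest 2-day library in each. Csf1, the M-CSF gene, read 217, 238 and 259 TPM, against 1060.2, 1046 and 1024 TPM, and fell (-1.70 ± 0.26). Ccl5 read 24.1, 21.6 and 10.9 TPM, against 3.17, 4.03 and 5.24 TPM, and was the member that rose (2.27 ± 0.38). With any 1 of the 2-day libraries left out 5 to 7 fell, and 8 did without large-cell replicate 4. Tnf changed by 0.68 ± 0.23 (adjusted p = 0.0972), and Lcn2 (-2.98 ± 0.44) and Saa3 (-2.56 ± 0.63), acute-phase genes, passed as lower without replicate 2. Neutrophil markers summed to 17.7, 65.9 and 27.2 TPM in large cells, against 173.9, 93.4 and 85.4 TPM at 2 days, nearly all of it S100a8, with Ngp, Elane, Mpo and Retnlg at 0 in the 6 libraries.

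Of 62 nuclear genes of oxidative phosphorylation 21 rose and none fell, and 50 rose without replicate 2, with medians of 1.11 and 0.70. No gene or a single one was called with any 1 of the 2-day libraries left out, and 5 were without large-cell replicate 4 and 13 with TPM as deposited. The shift was larger in replicate 2 than in the others. The list's median difference from the 2-day mean was 0.56, 2.01 and 0.83 in large-cell replicates 1, 2 and 4, and these genes are short, with a median exon length of 1652.5 bases, within the shortest of the 5 length groups. Mitochondrially encoded genes went the other way in replicate 2, at 0.77, -0.29 and 0.92 in replicates 1, 2 and 4. Of these 13 genes 3 rose with all libraries, 12 without replicate 2, and none without large-cell replicate 4 or any 1 of the 2-day libraries, and their median of 0.35 turns to -0.07 with TPM as deposited. Uqcrc2, a core subunit of complex III, read 208, 119.8 and 168 TPM in large cells, against 94.7, 97.7 and 101 TPM at 2 days (1.14 ± 0.14). The 4 succinate dehydrogenase genes, which join the respiratory chain to the citrate cycle, rose in both fits, with Sdhb at 249.3, 262 and 241 TPM, against 109, 107 and 111 TPM (1.62 ± 0.24). Of 18 genes around the citrate cycle 10 rose, and 17 without replicate 2, with medians of 0.94 and 0.90, 6 without large-cell replicate 4, and 3 with any 1 of the 2-day libraries left out or with TPM as deposited. Idh3g, a subunit of isocitrate dehydrogenase, read 172, 92.2 and 160.3 TPM, against 68.4, 65.9 and 69.7 TPM (1.42 ± 0.15). Of 16 glycolysis genes none was called with all libraries, and 1 was higher and 2 lower without replicate 2, where Hk2 (-0.41 ± 0.11) and the lactate exporter gene Slc16a3 (-0.62 ± 0.19) were the lower ones. With TPM as deposited 1 was lower, and 7 were lower and none higher without replicate 2, a setting in which 3474 of all 12814 genes were lower.

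Of 13 genes of iron handling 2 rose and 1 fell, and 5 rose and 2 fell without replicate 2. Tfrc, the transferrin receptor, read 277, 78.000 and 177 TPM in large cells, against 68.982, 78.1 and 77.002 TPM at 2 days (1.48 ± 0.28), and Steap3, the reductase that frees iron in endosomes, read 22.6, 9.91 and 16.2 TPM, against 3.79, 3.93 and 5.93 TPM (1.96 ± 0.22). Slc25a37, the mitochondrial iron importer, fell (-0.80 ± 0.19), and the other 10 members were not called with all libraries. Steap3 alone was called without large-cell replicate 4 or any 1 of the 2-day libraries. Of 28 lysosomal genes 15 rose with all libraries and 23 without replicate 2, with none lower and medians of 0.75 and 0.86, but 9 without large-cell replicate 4, 3 or 4 with any 1 of the 2-day libraries left out and 5 with TPM as deposited. Hexa, a subunit of β-hexosaminidase, read 635, 557 and 462 TPM, against 185, 182 and 187 TPM (1.99 ± 0.25), and the protease gene Ctsb read 1552, 924 and 1173 TPM, against 735, 719.6 and 784 TPM (1.10 ± 0.20). Glb1 (1.16 ± 0.14) and Gusb (1.20 ± 0.16), which degrade glycans, rose alongside.

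**Figure D4:**
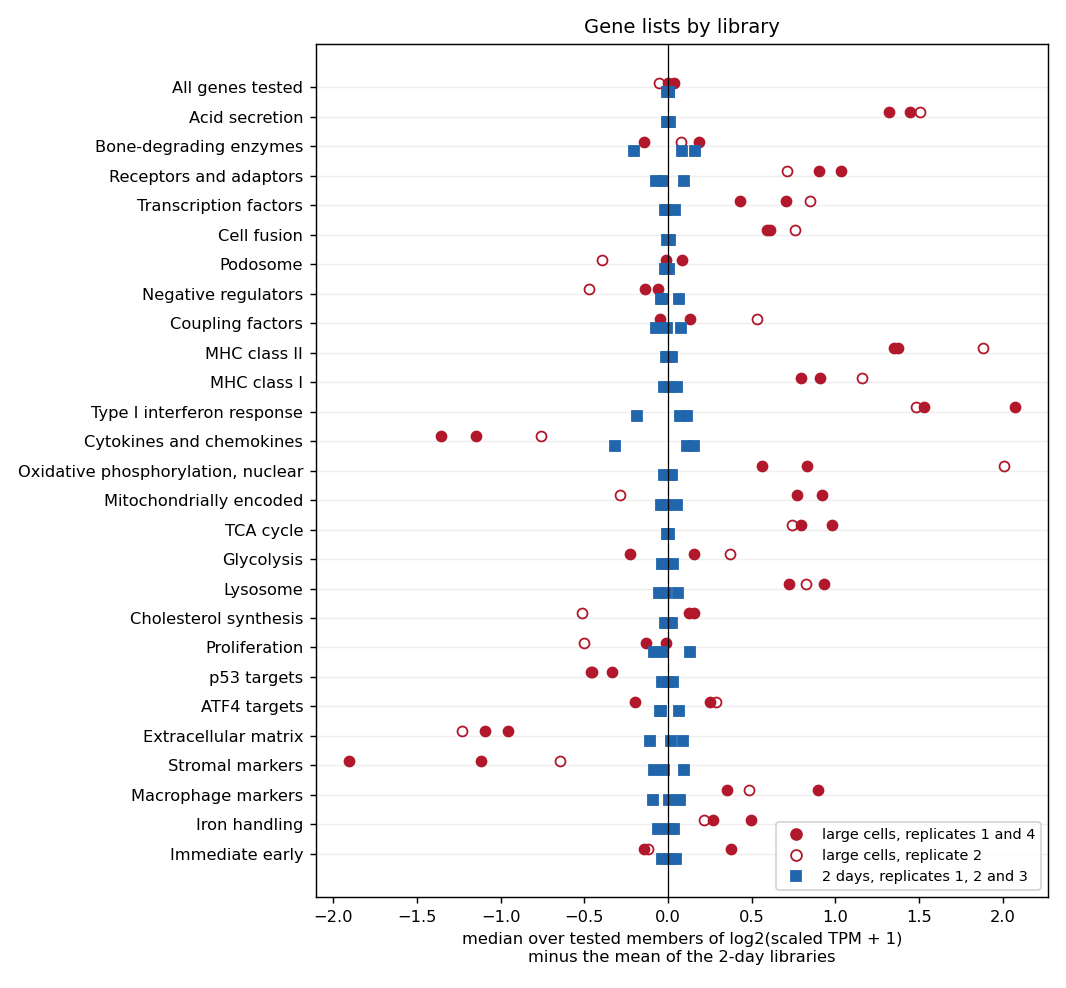
Median over the tested members of each gene list (rows) of log2(scaled TPM + 1) less the mean of the 2-day libraries (x axis), with a circle for each large-cell library (replicate 2 open) and a square for each 2-day library. Acid secretion genes lie at 1.32 to 1.503 in the large-cell libraries, whereas for oxidative phosphorylation replicate 2 stands at 2.01 against 0.56 and 0.83.

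Several extracellular matrix genes fell. Of 22 genes 11 were lower and none higher, and 16 were lower without replicate 2, with medians of -1.08 and -0.95, but 7 without large-cell replicate 4 and 3 or 4 with any 1 of the 2-day libraries left out. Tnc, the matrix protein tenascin C, read 599, 248 and 459 TPM in large cells, against 2272, 2362 and 2019 TPM at 2 days (-2.01 ± 0.23). Lox, which cross-links collagen, read 443, 177 and 329.9 TPM, against 1419.6, 1594 and 1376 TPM (-1.87 ± 0.22), and Fn1, the fibronectin gene, read 1561, 750.5 and 1448 TPM, against 3760.4, 3705 and 3461 TPM (-1.18 ± 0.23). No large-cell library reached the 2-day range for these genes. Of 7 collagen genes 4 fell, and 6 without replicate 2, among them Col5a2 (-1.52 ± 0.22). In 18 of the 23 matrix genes each large-cell library lay below each 2-day library, against 39.7% of all genes tested. Markers of stromal cells were lower as well. The summed TPM of 16 stromal markers was 2744, 5783 and 4306 in large cells, against 12593, 11999 and 11036 at 2 days, and 3 of 10 tested were called lower, or 9 without replicate 2 and none without any 1 of the 2-day libraries. Acta2, the smooth-muscle actin gene, read 1189, 1737 and 1779 TPM, against 5185, 4749.8 and 4364 TPM, and Lmod1, a smooth-muscle gene, read 4.94, 8.38 and 7.79 TPM, against 47.8, 39.1 and 36.3 TPM, and fell. Of the osteoblast genes in this list, Bglap stood at 0 and Sp7 and Alpl at or under 0.44 TPM in the 6 libraries. The list also holds Runx2 and Ibsp, whose values are not given here. The part of stromal cells in the matrix result was not tested.

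Macrophage markers did not fall together. Of 18 tested 5 rose and 1 fell, and 9 rose and 1 fell without replicate 2, and the median of 0.29 turns to -0.11 with TPM as deposited. With any 1 of the 2-day libraries left out, Cd68 alone was called. Their summed TPM was 30891, 23548 and 31169 in large cells, against 23133, 22185 and 25205 at 2 days, most of it the lysozyme gene Lyz2. Cd68, a lysosomal membrane protein shared with osteoclasts, read 1317, 607 and 939 TPM, against 214, 185 and 217 TPM (2.57 ± 0.20). Cx3cr1, the fractalkine receptor, rose (1.11 ± 0.22) with the complement genes C1qb (1.25 ± 0.32) and C1qc (0.93 ± 0.21), and the scavenger receptor gene Cd36 fell (-1.16 ± 0.25). Adgre1, which encodes F4/80, read 299, 76.1 and 228 TPM, against 380.4, 354 and 322 TPM, and was not called in either fit.

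Few genes of cell division were called at 6 months with all 6 libraries. Of 36, 1 was higher and 2 lower (median -0.18), against 8.33% and 7.44% of all genes. Without replicate 2, 5 were higher and 5 lower (median -0.004), against 19.1% and 16.1% of all genes. None of the 36 was called with any 1 of the 2-day libraries left out. With TPM as deposited none was higher and 1 lower, but 1 was higher and 15 lower without replicate 2, with a median of -0.22. In that last setting 3474 of all 12814 genes were lower, and the median of all genes was -0.18. Rrm2, a subunit of ribonucleotide reductase, read 40.3, 25.8 and 46.2 TPM in large cells, against 95.8, 104.9 and 108 TPM at 2 days (-1.05 ± 0.16), and Tpx2, a spindle factor, changed by -1.07 ± 0.26. Cdt1, which licenses replication origins, rose (0.99 ± 0.18). Targets of p53 were lower in 6 of 24 cases and higher in 1, lower in 11 and higher in 2 without replicate 2, and lower in 1 with any 1 of the 2-day libraries left out. Plk2, a stress-induced kinase, read 46.1, 32.8 and 51.1 TPM, against 145, 161 and 144 TPM (-1.37 ± 0.16), and the death receptor gene Tnfrsf10b read 11.7, 5.82 and 12.7 TPM, against 31.3, 33.8 and 31.8 TPM (-1.26 ± 0.19). Of 18 genes of the ATF4 stress response only the cystine transporter gene Slc7a11 was called with all libraries, and it fell (-1.24 ± 0.26). Without replicate 2, 2 were higher and 1 lower, and with any 1 of the 2-day libraries left out none was called. Of 20 cholesterol synthesis genes Insig1 (0.87 ± 0.23) and Mvd (0.99 ± 0.18) rose, against 8.33% of all genes. Without replicate 2, 5 rose and 2 fell, against 19.1% and 16.1% of all genes. A single one of the 20 or none was higher with large-cell replicate 1 or 4 or any 1 of the 2-day libraries left out, and none with TPM as deposited. Of 18 immediate early genes 3 rose and 2 fell, against 8.33% and 7.44% of all genes. Without replicate 2, 5 rose and 4 fell, against 19.1% and 16.1% of all genes. The pair that fell with all libraries still fell, and none rose, with any 1 of the 2-day libraries left out. Egr2, which restrains osteoclast formation, was lower, at 8.86, 5.65 and 7.25 TPM, against 46.2, 57.4 and 48.1 TPM (-2.26 ± 0.16), and Fosb fell too (-1.55 ± 0.17), in contrast to Fos.

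The same step was compared between ages, with 3 libraries at each stage at 20 months. At 20 months 6975 of 12939 genes (53.9%) were called, 3313 higher (25.6%) and 3662 lower (28.3%) in large cells. The step differed between 20 and 6 months for 2141 of 12898 genes (16.6%), with 1065 (8.26%) higher and 1076 (8.34%) lower at 20 months, and for 3926 of 12935 (30.4%) without 6-month replicate 2, 1734 higher (13.4%) and 2192 lower (16.9%). With TPM as deposited, the split was 1107 higher and 533 lower. The day on which large cells were harvested is not given for either age.

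Cell division genes fell at 20 months. Of 36, none was higher and 36 were lower in large cells at 20 months, with a median of -2.36, and the interaction was called lower at 20 months for 31, or 33 without 6-month replicate 2. Top2a, a topoisomerase of dividing cells, read 21.8, 15.1 and 18.7 TPM in large cells and 131, 137 and 111 TPM at 2 days at 20 months, whereas it read 68.3, 32.4 and 55.6 TPM in large cells and 58.9, 69.997 and 82.5 TPM at 2 days at 6 months. Rrm2 read 10.6, 8.38 and 11.3 TPM in large cells and 127, 131 and 114 TPM at 2 days at 20 months (-3.42 ± 0.10), with an interaction of -2.35 ± 0.19 (adjusted p = 5.44e-05).

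Matrix genes turned in opposite directions. At 20 months 18 of 22 rose and 2 fell, with a median of 1.34, and the interaction was called higher for 20, or 21 without 6-month replicate 2. Col1a1, the collagen I gene, read 1634, 1325 and 1511 TPM in large cells and 259, 230.0 and 297 TPM at 2 days at 20 months, whereas at 6 months it read 402, 272 and 332 TPM in large cells and 711, 672 and 585 TPM at 2 days, an interaction of 3.16 ± 0.21 (adjusted p = 2.65e-05). Fbn1, the fibrillin gene, changed by 1.51 ± 0.09 at 20 months and -1.53 ± 0.25 at 6 months. Stromal markers had an interaction higher at 20 months for 4 of 11 tested genes, against 8.26% of all genes. Without 6-month replicate 2 it was higher for 7, against 13.4% of all genes. The part of stromal cells in the matrix difference was not tested. ATF4 response genes rose in 16 of 18 cases at 20 months, and the interaction was higher for 9, or 14 without 6-month replicate 2.

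Several leading osteoclast genes, Dcstamp, Acp5, Ctsk and Atp6v0d2 among them, rose at both ages, by less at 20 months. Oscar did not follow, with a change of 6.18 at 20 months and 5.25 at 6 months and an interaction of 0.83 ± 0.28 (adjusted p = 0.0714), nor did Mmp9 (0.60 ± 0.45) and Itgb3 (0.67 ± 0.28), whose interactions were not called. Dcstamp read 81.5, 93.7 and 62.6 TPM in large cells and 9.41, 6.96 and 3.58 TPM at 2 days at 20 months (3.54 ± 0.29), and its interaction was -2.68 ± 0.44 (adjusted p = 0.00202). The large-cell levels overlapped between the ages, while the 2-day levels were higher at 20 months in each library. Acp5 followed the same order at 2 days, at 173, 186 and 137 TPM at 20 months and 23.5, 16.9 and 23.1 TPM at 6 months, with an interaction of -2.37 ± 0.34. In large cells as deposited, Acp5 read 7623, 12057.5 and 7908 TPM at 20 months, above 5679.9, 4668 and 4553 TPM at 6 months. Ctsk read 7791, 11089 and 6510 TPM in large cells at 20 months, above 6064, 2469 and 3822 TPM at 6 months. At 2 days Ctsk read 227, 242 and 166 TPM at 20 months, above 36.8, 34.6 and 45.1 TPM at 6 months. The large-cell levels of Atp6v0d2 overlapped between the ages. Of 25 acid secretion genes 23 rose at 20 months and the interaction was called for 2, or 6 without 6-month replicate 2. Over all genes the interaction was lower for 8.34%, or 16.9% without 6-month replicate 2. Among receptors and adaptors the interaction was lower for 7 of 16 genes, or 11 without 6-month replicate 2. Plcg2 (-1.20 ± 0.17) and Fcer1g (-1.70 ± 0.33) were among these, and both fell at 20 months (-0.31 ± 0.07 and -0.70 ± 0.07). In the class II list the interaction was lower for 8 of 11 genes, or 9 without 6-month replicate 2, and higher for 1, Cd80 (1.33 ± 0.23). Cd74 read 202, 67.4 and 86.1 TPM in large cells and 6.68, 6.19 and 5.01 TPM at 2 days at 20 months. Of 32 interferon genes 25 rose at 20 months. Cxcl10 changed by -0.21 ± 0.24 at 20 months and 2.75 ± 0.29 at 6 months (interaction -2.99 ± 0.40), and Ifi44 changed by 3.53 ± 0.10 at 20 months and 0.53 ± 0.21 at 6 months (interaction 2.97 ± 0.22).

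**Figure D5:**
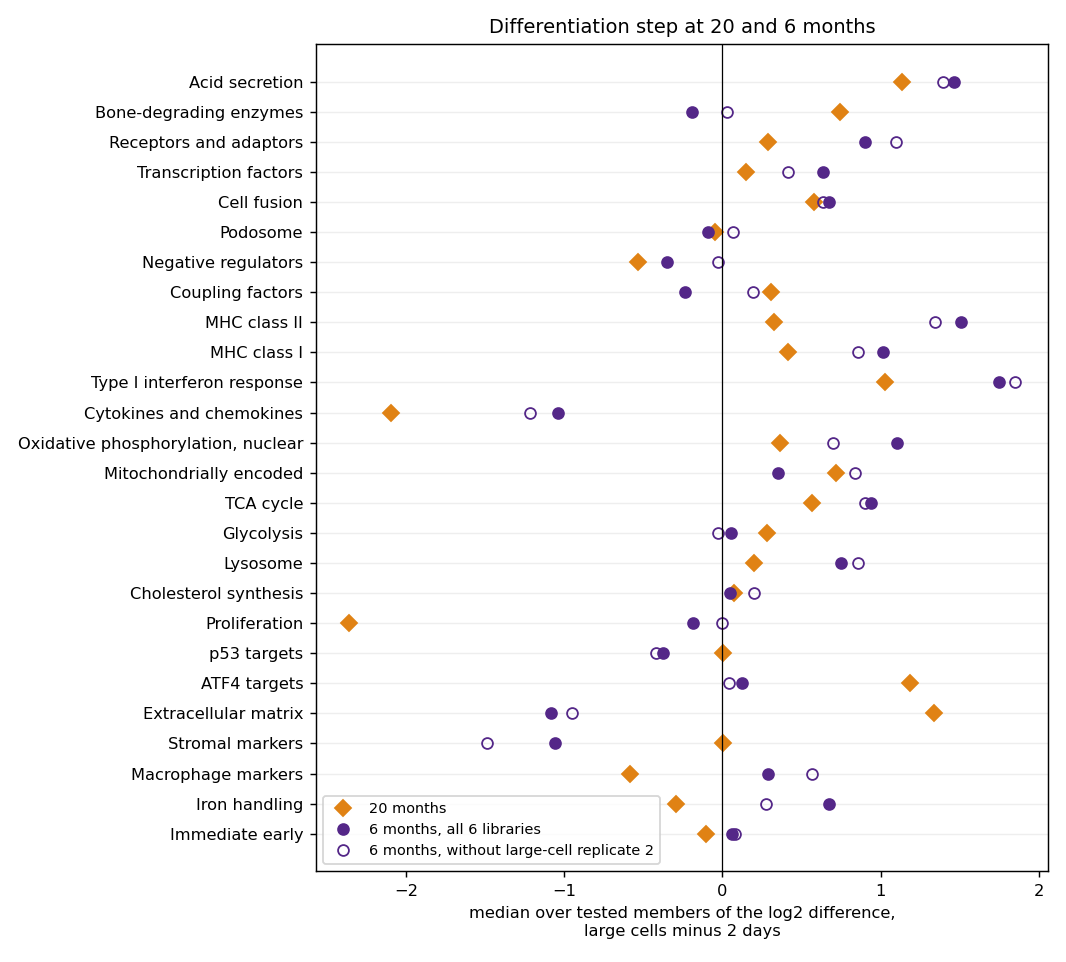
Median over the tested members of each gene list (rows) of the log2 difference between large cells and 2 days (x axis), at 20 months (diamonds) and at 6 months with all 6 libraries (filled circles) or without large-cell replicate 2 (open circles). Cell division genes stand at -2.36 at 20 months and -0.18 at 6 months, and matrix genes at 1.34 and -1.08.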

How the data were processed

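Total RNA was enriched with oligo(dT) beads and sequenced on an Illumina NovaSeq instrument, per the labels' protocols. The deposited files hold TPM for 45706 genes, with each library summing to the same total, as the authors made them. A count test had been planned in case they held counts, and was not run. The submitters' processing notes name mm10 and HTSeq, with no version. The aligner, the gene lengths and the use of strand are not stated, so reads of overlapping genes cannot be told apart. The sequencing depth is unknown, so no interval for counting error is given.

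Libraries were grouped by their labels: 3 of large cells and 3 at 2 days. TPM values were divided by trimmed-mean factors (30% of log ratios and 5% of levels trimmed), genes averaging under 1 TPM were dropped, 1 was added, and log2 values were tested with limma 3.58.1 (R 4.3.3, with a trend and robust variances) on these 6 libraries, with Benjamini-Hochberg adjustment over all genes and a threshold of 0.05. A second fit left out large-cell replicate 2, and another tested the interaction with age over 12 wild-type libraries. Every adjusted p comes from limma. The procedure was tested on simulated data in which both groups had the same spread and no library stood apart. The simulation therefore does not cover a library such as large-cell replicate 2. Alternatives were a replicate block, TPM with no scaling, scaling by median ratios, 0.1 in place of 1 as pseudocount, all genes kept, one variance per group, all 30 libraries in one fit and each replicate left out. Gene symbols were matched by identifier to GENCODE M21 (45143 of 45706). Promoters came from RefSeq.

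The members and the 35 lists were chosen with earlier results of these data known. Genes named were the 12 largest rises and falls called with and without replicate 2 (mean of at least 5 TPM, no overlap, predicted genes and sex-linked genes left out), members of the osteoclast lists, 6 of each other list by p, and the 5 highest and lowest interactions. Acta2, Adgre1, Bst2, Ccl5, Cd80, Cd86, Ciita, Col1a1, Csf1, Cxcl2, Cxcl3, Fn1, Hk2, Ifi44, Ifit3b, Isg15, Lcn2, Lyz2, Oas3, Pf4, Rsad2, Saa3, Stat2, Tnf, Top2a, Trim30a and the markers near 0 were named after their values were seen. Some items, 1 of the leading falls among them, are not reported here.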

Additional observations from a re-analysis of the deposited data

Results flagged for a closer look

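The step from 2 days to large cells differed between 20 and 6 months, by the interaction test, for 2141 genes, and for the genes named here. Interactions are given as 20 minus 6 months on the log2 scale, with limma's adjusted p.

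Among the highest, Itga11, the α11 integrin chain that binds collagen, had an interaction of 4.78 (adjusted p = 4.26e-05). It read 42.1, 22.3 and 42.981 TPM in large cells and 3.74, 3.92 and 6.02 TPM at 2 days at 20 months, whereas at 6 months it read 5.67, 3.47 and 3.99 TPM in large cells and 32.2, 22.3 and 26.4 TPM at 2 days, so the groups changed order between the ages. Thbs2, the matrix protein thrombospondin 2, had 4.248, Adamts4, a proteoglycan-cleaving enzyme, 3.835, Aldh1l2, an enzyme of mitochondrial folate metabolism, 3.832, and Pappa, a protease of IGF-binding proteins, 3.527.

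Among the lowest, Ighm, the immunoglobulin heavy chain gene, had -5.049. It read 3.25, 0.879 and 2.59 TPM in large cells and 12.7, 8.09 and 7.12 TPM at 2 days at 20 months, and the order was the opposite at 6 months. S100a9, a neutrophil gene, had -4.576. Large-cell libraries of both ages list it at 0, and it read 18.3, 60.2 and 19.2 TPM at 2 days at 20 months and 0, 0.396 and 0 TPM at 2 days at 6 months. Cep85, a centrosome gene, had -3.944, and Rpph1, the RNA of ribonuclease P, -3.837. Both read highest in 6-month large-cell replicate 2, and their values without it were -3.23 and -3.17. Usp50 had -4.772 (adjusted p = 0.0437), with large-cell values at 6 months of 14.6, 59.4 and 8.87 TPM.

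Of the leading rises at 6 months, Acp5 had an interaction of -2.368, Ctsk -1.632, Atp6v0d2 -2.454, Slc9b2 -1.525, Dcstamp -2.684, Cyp2s1 -2.646 and Rufy4 -1.16. The class II genes Cd74, H2-Aa and H2-Eb1 had -3.253, -2.661 and -2.244. Each of these rose at both ages, by less at 20 months. Of the leading falls, Il11 had 1.679, Odaph 1.977 and Npnt 1.888, so the fall was smaller at 20 months. Pakap had 2.751 and was not called at 20 months (-0.10 ± 0.16, adjusted p = 0.61). Serpinb2 had -1.494 and fell further at 20 months. Each of the interactions named here kept its direction and its call without 6-month large-cell replicate 2.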

How the results depend on the processing

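The count of genes called with all 6 libraries (2016) lay between 1564 and 2006 with TPM as deposited, scaling by median ratios, 0.1 as pseudocount, all genes kept or one variance per group. It was 6299 with all 30 libraries in one fit. Leaving out a replicate gave 445 to 4514. Without large-cell replicate 2 the count was 4514, and leaving out a further replicate gave 2765 (without 2-day replicate 2) to 5682 (without large-cell replicate 4), where a lone large-cell library is assumed to vary like the others. The list genes called numbered 368 with all 30 libraries and 66 to 352 with a replicate left out. The interaction (2141) became 3926 without 6-month large-cell replicate 2. The log2 change of Pstpip2 lay between -0.5674 without large-cell replicate 1 and 0.7886 without replicate 2. The other genes among the 266 followed across these settings kept their direction wherever they were called. The cause of these changes was not tested.

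Same-numbered libraries did not deviate together, with correlations of -0.0517 for number 1 and -0.0803 for number 2. With the replicate block, which leaves 1 residual degree of freedom, the counts were 365 for all genes, 60 for list genes and 1423 for the interaction, and each of the 24 leading genes was still called. No paired analysis was possible without large-cell replicate 2 because the groups then share a single number.

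The depth of the libraries is unknown, so values near 0 cannot be told from 0.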

Other observations

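Markers of other cell types gave mixed values. Vwf, the von Willebrand factor of endothelium and platelets, read 10.4, 12.2 and 6.50 TPM in large cells, against 3.98, 2.34 and 1.59 TPM at 2 days, and rose (1.92 ± 0.40), a call lost without any 1 of the 2-day libraries. Of the 7 endothelial markers it alone lay higher in each large-cell library and 4 lay lower in each. The shares over all genes tested were 11.4% higher and 39.7% lower. Pecam1, the other endothelial marker tested, changed by -0.59 ± 0.19 (adjusted p = 0.0803). Pf4, a platelet chemokine, read 948, 2413 and 1011 TPM, against 3193, 2889 and 2357 TPM, and was not called with all libraries (-0.65 ± 0.56) but passed as lower without replicate 2 (-1.29 ± 0.17). Mast cell and basophil markers summed to 6.04, 15.7 and 10.05 TPM in large cells, against 39.5, 44.7 and 37.1 TPM at 2 days, nearly all of it Mcpt8, a basophil protease gene, which was not called with all libraries (-1.54 ± 0.48, adjusted p = 0.0758) and passed as lower without replicate 2 (-2.08 ± 0.24). Markers of T and NK cells summed to 20.4, 4.80 and 13.8 TPM, against 14.7, 16.8 and 15.6 TPM, most of it Il7r, with no gene called in either fit. Of these lists Cd3e, Cd3g, Cd8a, Nkg7, Cpa3 and Fcer1a were listed at 0 in the 6 libraries.

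Gm42418, a gene known to overlap ribosomal RNA sequence, read 318, 10564 and 279 TPM in large cells, against 554, 586 and 647 TPM at 2 days, and large-cell replicate 2 held the highest value.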
